A study of Rattus norvegicus with 30 samples.

Results

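The kidneys of male rat pups aged 10 days, born to dams on a low-protein diet (D10-LP), were compared with the kidneys of pups aged 5 days from the same maternal diet (D5-LP). The question of the comparison was which transcripts changed in the kidney of these pups over 5 days of lactation. Members were chosen by their labels alone, which gave 5 D10-LP arrays and 5 D5-LP arrays, or 10 of the 30 arrays of the series. All animals were SHRSP/Izm rats, an inbred strain that develops hypertension and stroke. The LP dams had eaten a diet with 9% casein throughout pregnancy and a commercial diet after delivery, so that the pups of both groups were still with their dams and had met the low-protein diet only before birth. Both groups therefore share strain, sex and fetal diet, and differ in postnatal age. D10-CN and D5-CN pups, from dams that had eaten 20% casein, were used to test whether the change with age differed between the maternal diets, and the levels of D28-LP pups (28 days) are given for some genes. Total RNA of the kidney was hybridized to Affymetrix GeneChip arrays for the rat, which measure a gene with sets of short probes near the 3′ end of its transcript. The labels call the 5 arrays of a group biological replicates, whereas the methods of the study speak of pooled renal RNA of each group. The litters are not given, so the p-values cover the spread among these arrays and no more.

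As background, the rat is born with an unfinished kidney. New nephrons form from progenitor cells at the rim of the cortex, beside the tips of the branching ureteric tree, until shortly after the first postnatal week. After that, growth comes mainly from tubules that lengthen and mature, and the medulla gains the solute gradient that lets the kidney concentrate urine. Progenitor loss, a slowing cell cycle and the onset of transport and urea handling are thus all processes that the days studied here can hold. Because whole kidneys were measured, fewer cells of a type and less RNA per cell cannot be told apart.

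Each value below is a log2 value as deposited, so that a difference of 1 is a 2-fold change. Where a gene had several probe sets, the one of highest mean in the series stood for it. A probe set or gene was called when the adjusted p of limma was under 0.05. Of the 31042 probe sets tested, 12497 (40.3%) were called, 3738 higher (12%) and 8759 lower (28.2%) in D10-LP kidneys than in D5-LP kidneys. A change of at least 1 was called for 140 probe sets higher (0.451%) and 165 lower (0.532%). The balance of higher and lower depended on scale. The deposited values share 97 to 219 identical numbers between any pair of D10 arrays and 101 to 234 between any pair of D5 arrays, against 0 to 5 between a D10 and a D5 array, a pattern that normalization of each age by itself leaves. Age and normalization run cannot be told apart for a single probe set. The mean of an array was 6.854 to 6.869 in D10-LP kidneys and 6.924 to 6.939 in D5-LP kidneys, and the median difference over all probe sets was -0.08. After quantile normalization of the 10 arrays together, the median difference was -0.01, and 5370 probe sets were called higher and 5585 lower. The share of calls that were higher was thus 29.9% as deposited, 40.5% with each array centred on its median and 49.0% with quantile normalization. All 3738 probe sets called higher as deposited stayed so with quantile normalization, as did 5585 of the 8759 called lower, and 0 were called the other way. Of the 305 probe sets called with a change of at least 1, 304 were called the same way after quantile normalization. Spiked-in hybridization controls (18 probe sets) differed by -0.13 to 0.09 between the ages, with a median of -0.01, and poly-A controls (27 probe sets) by -0.25 to 0.21, with a median of -0.13. Correlations were 0.986 to 0.9977 between D10-LP arrays, 0.9931 to 0.9975 between D5-LP arrays and 0.9775 to 0.9898 between the groups.

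**Figure D1:**
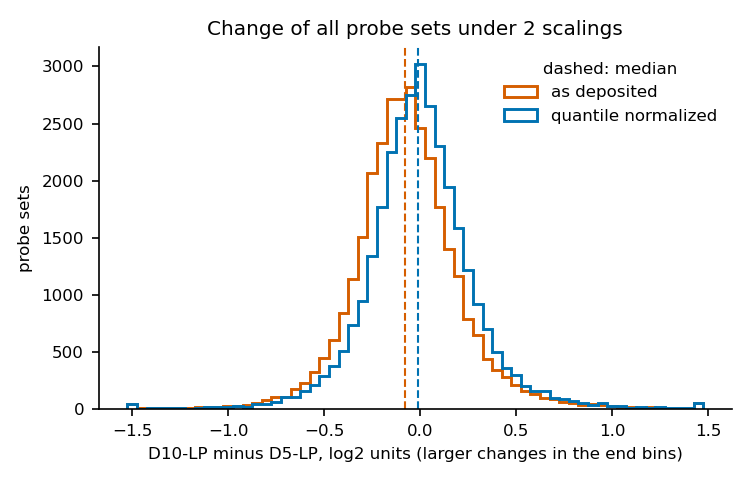
Number of probe sets (y axis) by D10-LP minus D5-LP difference in log2 units (x axis), for the values as deposited and after quantile normalization of the 10 arrays together. The dashed lines are the medians, -0.08 as deposited and -0.01 after quantile normalization.

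Counts of genes below are to be read against the 14217 genes with a probe set of their own, of which 11.3% were called higher and 31% were called lower (median difference -0.09). With quantile normalization these shares were 16.9% and 19%. Called in either direction as deposited were 42.3%, a change of at least 1 was called for 0.556% higher and 0.696% lower, and the D10-LP arrays lay entirely above the D5-LP arrays for 7.69% and entirely below them for 23.1%. The labelled tissue was borne out by its markers, which lay far above the array mean at both ages: *Lrp2*, the endocytic receptor megalin of the proximal tubule, averaged 12.27 in D10-LP and 12.41 in D5-LP kidneys, *Umod*, the uromodulin of the thick ascending limb, 13.13 and 12.83, and *Aqp2*, the vasopressin-regulated water channel of the collecting duct, 12.32 and 12.41.

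**Figure D2:**
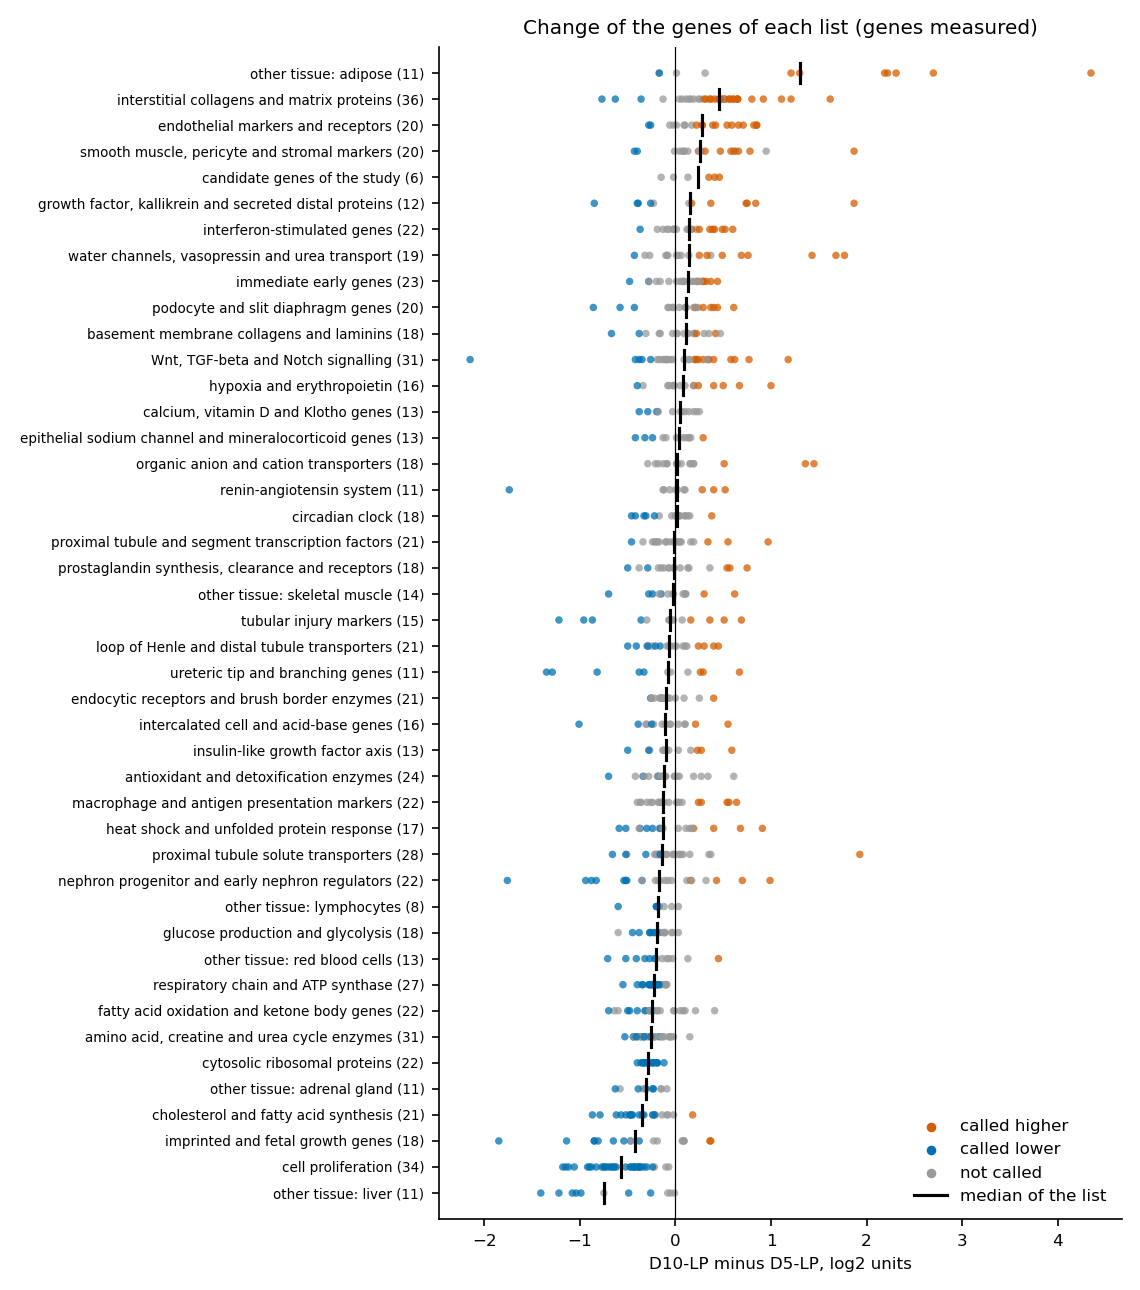
D10-LP minus D5-LP difference in log2 units (x axis) of each measured gene of 44 lists (rows, with the number of genes), ordered by the median of the list. Cell proliferation lies on the left, with 31 of 34 genes called lower, and interstitial matrix and endothelial genes on the right, below the adipose markers.

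Genes of nephron formation changed in both directions, in shares near or above those of all genes. The shares of all genes were 31% lower and 11.3% higher as deposited, and 19% and 16.9% with quantile normalization. Of 22 measured regulators of nephron progenitors and early nephrons, 8 were lower, 4 were higher and 10 were not called, with a median difference of -0.17 (8 lower, 5 higher and a median of -0.05 with quantile normalization). *Fgf8*, a growth factor that nascent nephrons need in the mouse, had 3.23, 3.30, 3.28, 3.37 and 3.42 in the D10-LP arrays, against 5.12, 5.06, 4.77, 5.04 and 5.41 in the D5-LP arrays. The groups lay apart, with a difference of -1.76 (SE 0.10, limma adjusted p = 5.58e-07). *Lhx1*, a homeobox factor of the first epithelial vesicle, had 7.65, 7.72, 7.79, 7.89 and 7.82 in the D10-LP arrays, against 8.70, 8.70, 8.57, 8.44 and 9.14 in the D5-LP arrays, and *Eya1*, a cofactor that keeps progenitors undifferentiated, had 6.16, 6.17, 6.39, 6.20 and 6.27 in the D10-LP arrays, against 7.19, 7.03, 7.03, 7.0 and 7.34 in the D5-LP arrays. Neither gene overlapped between the groups, and the differences were -0.94 (SE 0.11, limma adjusted p = 7.66e-05) and -0.88 (SE 0.08, limma adjusted p = 9.62e-06). The Notch ligands *Dll1* (-0.54) and *Jag1* (-0.52) and the Notch target *Hey1* (-0.83) were called lower as well, as were the zinc finger factor *Sall1* (-0.51) and *Gdnf* (-0.35), the ligand with which progenitors attract the ureteric tip. In the opposite direction, *Meox2*, a homeobox gene of mesenchyme, had 6.29, 6.56, 6.06, 6.36 and 6.26 in the D10-LP arrays, against 5.41, 5.38, 5.56, 5.01 and 5.23 in the D5-LP arrays, and *Itga8*, the integrin chain through which mesenchyme binds nephronectin, rose by 0.70 (limma adjusted p = 0.0002). *Meox1* (0.43) was also called higher. *Wnt4*, which turns progenitors into epithelium, differed by 0.32 with overlapping groups and was not called (limma adjusted p = 0.103, but 0.0483 without D5-LP replicate 3 and 0.029 without D10-LP replicate 2), and neither were *Pax2* (-0.35) or *Pax8* (-0.21).

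Genes of the ureteric tip likewise changed in both directions. *Etv4*, the ETS factor that acts downstream of the GDNF receptor, had 5.38, 5.21, 5.89, 6.27 and 5.60 in the D10-LP arrays, against 7.06, 7.19, 6.92, 6.34 and 7.58 in the D5-LP arrays. Every D10-LP array lay below every D5-LP array (difference -1.35, SE 0.23, limma adjusted p = 0.000864). *Gfra1*, the co-receptor that binds GDNF, had 6.46, 6.65, 6.33, 6.37 and 6.28 in the D10-LP arrays, against 7.73, 7.64, 7.53, 7.58 and 8.04 in the D5-LP arrays, again without overlap (difference -1.29). *Emx2* (-0.82), *Wnt11* (-0.38) and *Etv5* (-0.33) were also called lower, 5 genes of 11 in all. Another 3 were called higher, namely *Grem1*, an antagonist of bone morphogenetic proteins (0.67), *Spry1*, a brake on receptor tyrosine kinases (0.29), and *Ret*, the GDNF receptor itself (0.26). The direction of *Ret* is uncertain, since its other 2 probe sets differed by -1.87 and -1.23. The calls of *Ret* and *Spry1* were also lost when any of 4 and any of 6 single arrays was left out (limma adjusted p up to 0.0823 and 0.0942). Among genes of Wnt, TGF-beta and Notch signalling, of which 10 of 31 were higher and 5 lower, the largest change was that of *Lgr5*, an R-spondin receptor present in newly formed nephrons of the mouse. *Lgr5* had 5.27, 5.55, 5.97, 5.58 and 5.68 in the D10-LP arrays, against 7.83, 7.75, 7.59, 7.77 and 7.88 in the D5-LP arrays, a difference of -2.15 (SE 0.11, limma adjusted p = 2.86e-07). Its mean in D28-LP kidneys was 3.88. *Wnt5a*, a non-canonical Wnt ligand, moved the other way and had 7.45, 6.90, 6.90, 7.03 and 6.91 in the D10-LP arrays, against 5.70, 6.02, 6.16, 5.82 and 5.59 in the D5-LP arrays, with a difference of 1.18.

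Cell proliferation genes fell as a group. Of 34 measured genes, 31 were called lower and 0 higher, 30 of them with every D10-LP array below every D5-LP array, and the median difference was -0.57. With quantile normalization 29 stayed lower, at a median of -0.48. *Ccnb1*, the mitotic cyclin B1, had 8.46, 8.76, 8.66, 8.33 and 8.49 in the D10-LP arrays, against 9.61, 9.63, 9.55, 9.83 and 9.99 in the D5-LP arrays, a difference of -1.18 (SE 0.10, limma adjusted p = 8.81e-06). *Bub1b* and *Bub1*, proteins of the spindle checkpoint, differed by -1.15 and -1.06, and *Uhrf1*, which guides maintenance DNA methylation, by -1.12. *Mki67*, the Ki-67 antigen of cycling cells, had 9.56, 9.83, 9.87, 9.72 and 9.81 in the D10-LP arrays, against 10.44, 10.44, 10.38, 10.51 and 10.70 in the D5-LP arrays. All D10-LP arrays were below all D5-LP arrays (difference -0.74, limma adjusted p = 2.73e-05). The replication helicase subunits *Mcm2* to *Mcm7* were each called lower, by -0.69 for *Mcm6* at the most and -0.37 for *Mcm3* at the least. Not called were *Cdc20* (-0.22), *Tyms* (-0.10) and *Ccne2* (-0.07), and the other 4 probe sets of *Cdc20* differed by -1.32 to -0.17.

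Promoters are shown for 3 of these genes, because cell cycle genes of the late phases are known to carry a CCAAT box and a cell cycle homology region (CHR, TTTGAA) close to their start. They are the 3 genes of the list with the most negative difference whose window holds both motifs: *Nusap1*, a spindle microtubule protein (difference -0.92), *Ccnb2*, cyclin B2 (-0.90), and *Cenpf*, a kinetochore protein (-0.88). The windows run from 250 bases before to 50 bases after the annotated start, 5′ to 3′ on the strand of the gene, from the RefSeq annotation of GRCr8, and capitals mark TTTGAA and CCAAT on either strand (ATTGG where reversed). They lie at chr3:127057045-127057344 (plus strand) for *Nusap1*, chr8:79981609-79981908 (minus strand) for *Ccnb2* and chr13:103760837-103761136 (minus strand) for *Cenpf*.
Nusap1: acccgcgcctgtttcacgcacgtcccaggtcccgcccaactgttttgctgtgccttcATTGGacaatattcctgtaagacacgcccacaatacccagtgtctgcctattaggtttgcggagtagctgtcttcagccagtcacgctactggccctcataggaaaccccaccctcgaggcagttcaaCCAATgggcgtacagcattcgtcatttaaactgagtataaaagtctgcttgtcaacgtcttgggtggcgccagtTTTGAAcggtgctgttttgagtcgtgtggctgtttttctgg
Ccnb2: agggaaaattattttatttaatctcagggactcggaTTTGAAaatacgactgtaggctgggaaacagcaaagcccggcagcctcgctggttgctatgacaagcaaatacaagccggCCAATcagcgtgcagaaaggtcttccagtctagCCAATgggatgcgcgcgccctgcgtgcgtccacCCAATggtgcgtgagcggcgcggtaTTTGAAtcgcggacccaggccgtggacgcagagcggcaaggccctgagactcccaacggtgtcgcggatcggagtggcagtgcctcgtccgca
Cenpf: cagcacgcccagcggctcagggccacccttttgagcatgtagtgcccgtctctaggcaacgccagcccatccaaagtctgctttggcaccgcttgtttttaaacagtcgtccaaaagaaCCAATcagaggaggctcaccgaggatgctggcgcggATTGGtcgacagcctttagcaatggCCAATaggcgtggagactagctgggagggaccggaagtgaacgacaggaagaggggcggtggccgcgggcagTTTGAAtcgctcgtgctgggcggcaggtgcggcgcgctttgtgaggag
In *Ccnb2*, 3 CCAAT boxes began 134, 101 and 68 bases before the start and a TTTGAA 43 bases before it, with another TTTGAA 214 bases before. *Nusap1* and *Cenpf* had their TTTGAA 9 and 2 bases after the start. CCAAT was found in 24 of the 30 promoters of the list that matched (80.0%), against 37.7% of all 27457 rat promoters of the same length. TTTGAA stood in 13 of 30 (43.3%), against 18.1% of all, and TTTGGCGC, an E2F motif, in 5 of 30 (16.7%), against 0.521%. Both TTTGAA and CCAAT were present in 11 of 30 (36.7%), against 7.25% of all promoters. These are matches of letters and not measured binding.

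Imprinted and fetal genes were lower too. Of 18 imprinted or fetal growth genes, 9 were called lower and 2 higher, with a median difference of -0.43 (9 lower and 4 higher with quantile normalization). *Afp*, alpha-fetoprotein, had 9.07, 9.03, 8.48, 7.98 and 8.52 in the D10-LP arrays, against 10.48, 10.42, 10.59, 10.85 and 9.97 in the D5-LP arrays (difference -1.85, SE 0.21, limma adjusted p = 4.92e-05). The means of the liver markers, given below, were likewise highest in D10-LP replicates 1 and 2 and lowest in D5-LP replicate 5 within their groups. The part of liver RNA in the fall of *Afp* was not tested. *H19*, the maternally expressed non-coding RNA next to *Igf2*, had 9.84, 10.03, 10.00, 10.12 and 10.05 in the D10-LP arrays, against 11.11, 11.12, 11.15, 10.99 and 11.37 in the D5-LP arrays, and the groups lay far apart with an SD of 0.10 in D10-LP and 0.14 in D5-LP arrays (difference -1.14, limma adjusted p = 1.58e-06). *Igf2*, the fetal insulin-like growth factor, had 9.30, 9.13, 9.25, 9.29 and 9.29 in the D10-LP arrays, against 10.15, 10.11, 10.22, 10.14 and 9.93 in the D5-LP arrays, a difference of -0.85, although its other 3 probe sets differed by only -0.27 to 0.03. The mRNA-binding proteins *Igf2bp1* (-0.81) and *Igf2bp3* (-0.85), the imprinted *Mest* (-0.65), *Grb10* (-0.54), *Dlk1* (-0.47) and *Ndn* (-0.38) were called lower. *Cdkn1c*, an imprinted inhibitor of the cell cycle, was called higher (0.37, limma adjusted p = 0.00492). In D28-LP kidneys *Afp* averaged 3.58 and *H19* 6.05. Of the postnatal growth axis, *Igf1* (0.27) and the binding protein *Igfbp5* (0.59) were higher, *Irs1*, a substrate of the insulin and IGF receptors, was lower (-0.50), and *Insr* (-0.13) and *Ghr* (-0.07) were not called.

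**Figure D3:**
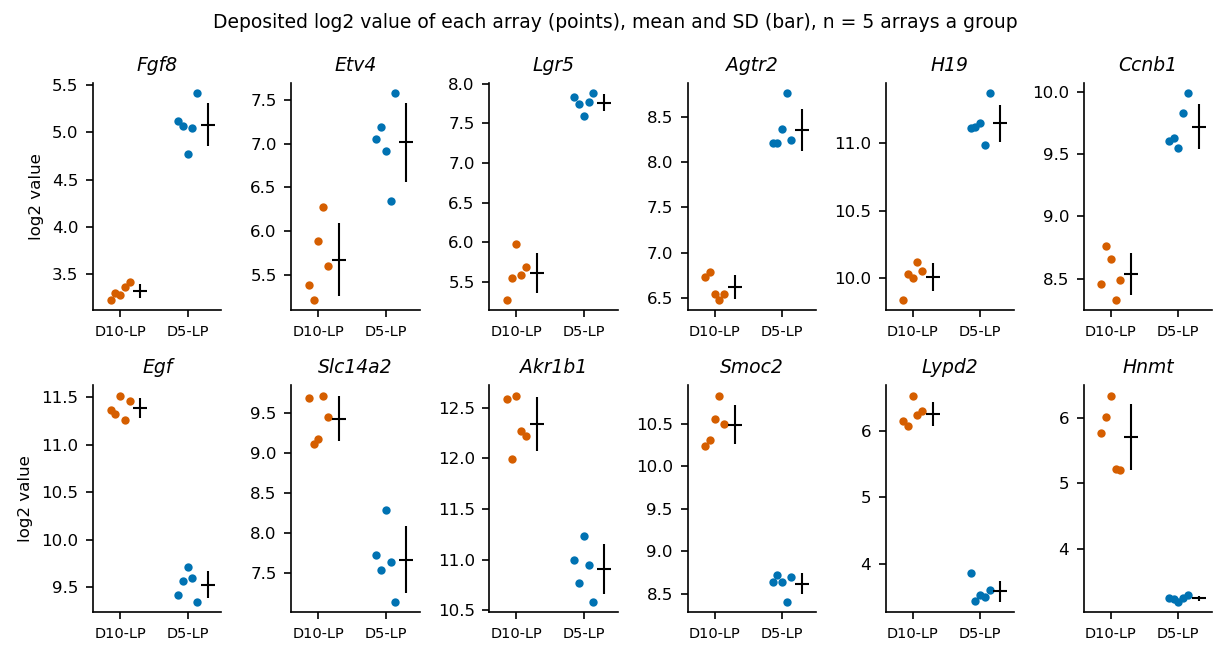
Deposited log2 value (y axis, a scale for each gene) of each of the 5 D10-LP and 5 D5-LP arrays (points) with mean and SD (bar) for 12 genes named in the text. In each of them the D10-LP and D5-LP arrays do not overlap. The 6 genes of the upper row are lower and the 6 of the lower row higher in D10-LP kidneys.

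Some genes that serve urine concentration were higher in D10-LP kidneys. Of 19 genes of water channels, vasopressin response and urea transport, 8 were called higher, 1 lower and 10 were not called (9 higher and 0 lower with quantile normalization), and the median difference was 0.14. *Slc14a2*, the urea transporter UT-A of the inner medullary collecting duct and the thin limb, had 9.69, 9.11, 9.17, 9.72 and 9.45 in the D10-LP arrays, against 7.72, 7.53, 8.29, 7.63 and 7.13 in the D5-LP arrays. The lowest D10-LP array was above the highest D5-LP array (difference 1.77, SE 0.19, limma adjusted p = 3.71e-05), while its other 4 probe sets differed by -0.22 to 1.58. *Slc14a1*, the urea transporter UT-B of the vasa recta and red cells, had 8.45, 8.48, 8.82, 9.11 and 8.79 in the D10-LP arrays, against 7.16, 7.13, 7.37, 6.92 and 6.68 in the D5-LP arrays, a difference of 1.68 (limma adjusted p = 9.75e-06) against 0.08 for its other probe set. *Akr1b1*, the aldose reductase that makes the osmolyte sorbitol, had 12.59, 11.99, 12.62, 12.27 and 12.22 in the D10-LP arrays, against 11.00, 10.77, 11.23, 10.95 and 10.58 in the D5-LP arrays. Here too the groups did not overlap, and the difference was 1.43 (SE 0.14, limma adjusted p = 1.93e-05). *Nfat5*, the transcription factor activated by hypertonicity, was called higher (0.49), a call lost without any of 6 single arrays (limma adjusted p up to 0.0698), as were *Avpr1a*, a vasopressin receptor (0.76), and *Hspa4l*, a chaperone induced by osmotic stress (0.69). The water channels themselves differed little, with *Aqp2* at -0.09 and *Aqp3* at -0.10, neither of them called. The 1 gene called lower was *Aqp4*, a basolateral water channel (-0.43), though not with quantile normalization (limma adjusted p = 0.131) nor without any of 8 single arrays (up to 0.111). *Sord*, which breaks sorbitol down (-0.27), was not called.

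Of 12 growth factor, kallikrein and other secreted products of the distal nephron, 6 were called higher and 4 lower in D10-LP kidneys, 6 of them with groups that did not overlap. *Egf*, the precursor of epidermal growth factor made by the thick limb and distal convoluted tubule, had 11.37, 11.33, 11.52, 11.26 and 11.46 in the D10-LP arrays, against 9.42, 9.56, 9.71, 9.59 and 9.34 in the D5-LP arrays. All D10-LP arrays lay above all D5-LP arrays, with a difference of 1.87 (SE 0.08, limma adjusted p = 9.13e-08). *Egf* averaged 12.90 in D28-LP kidneys. *Klk1*, tissue kallikrein, had 9.94, 10.19, 9.08, 8.53 and 9.01 in the D10-LP arrays, against 8.68, 8.24, 8.31, 8.69 and 8.65 in the D5-LP arrays, and the groups overlapped (difference 0.84, limma adjusted p = 0.0282). It was not called without D5-LP replicate 2 (limma adjusted p = 0.066), D5-LP replicate 3 (0.0633) or D10-LP replicate 1 (0.0617). *Fgf1* (0.75) and the EGF receptor gene *Egfr* (0.74) were called higher, and *Tff3*, a trefoil peptide (-0.85), and *Tgfa*, another EGF receptor ligand (-0.39), lower. Of 21 transporters and regulators of the loop of Henle and distal tubule, 4 were higher and 5 lower (6 and 2 with quantile normalization). *Umod* (0.30), the calcium-sensing receptor *Casr* (0.45), the chloride channel subunit *Bsnd* (0.40) and *Cldn16*, a tight junction protein of magnesium reabsorption (0.24), were higher. The calls of *Bsnd* and *Cldn16* were each lost without any of 6 single arrays (limma adjusted p up to 0.0822 and 0.086). The sodium chloride cotransporter *Slc12a3* (-0.24) was not called, and *Slc12a1*, the cotransporter of the thick limb, was called lower as deposited (-0.16, limma adjusted p = 0.045) but not with quantile normalization (limma adjusted p = 0.92) nor without any of 7 single arrays (up to 0.0927). *Foxq1* (0.97) and *Foxi1* (0.55), forkhead factors of which *Foxi1* marks intercalated cells, were called higher, while *Car14*, a membrane carbonic anhydrase, was lower and had 7.52, 7.83, 7.24, 7.0 and 7.17 in the D10-LP arrays, against 8.31, 8.24, 8.36, 8.54 and 8.34 in the D5-LP arrays. Of 16 intercalated cell and acid-base genes, 2 were higher and 3 lower (2 and 1 with quantile normalization), with a median of -0.1.

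Few proximal tubule genes were called, and their arrays differed within an age. Of 28 solute transporters, 1 was called higher and 4 lower, of 18 organic anion and cation transporters 3 higher and 0 lower, and of 21 endocytic receptors and brush border enzymes 1 higher and 1 lower. Their medians were -0.14, 0.02 and -0.10, and -0.05, 0.11 and 0.03 with quantile normalization, so that the sign of the last depended on scale. These counts also depended on arrays. The mean over the solute transporters was 9.38 and 9.45 in D10-LP replicates 1 and 2 and 8.62 to 8.93 in the other 3, against 8.74 to 9.30 in D5-LP arrays. Without D10-LP replicates 1 and 2, a setting chosen after the values were seen, 13 of the 28 solute transporters, 4 of the 18 organic ion transporters and 9 of the 21 endocytic and brush border genes were called lower, beside 36.4% of all genes. The phosphate transporter *Slc34a1* (-0.02), the glucose transporter *Slc5a2* (0.08) and *Lrp2* (-0.14) were not called. *Lrp2* was called lower without D10-LP replicates 1 and 2, and also without replicates 1, 2 and 4. The mean over the 28 solute transporters had an SD of 0.35 over D10-LP arrays and 0.22 over D5-LP arrays, against 0.09 and 0.11 for the cell proliferation list. Among the exceptions, *Abcb1a*, the P-glycoprotein drug efflux pump, had 6.25, 6.22, 6.52, 5.97 and 6.22 in the D10-LP arrays, against 4.79, 5.05, 4.69, 5.20 and 4.22 in the D5-LP arrays (difference 1.45, limma adjusted p = 5.13e-05), and its second probe set differed by 1.60. *Slc22a7*, an organic anion transporter, had 6.38, 6.41, 6.34, 5.82 and 6.09 in the D10-LP arrays, against 4.91, 4.84, 4.72, 4.95 and 4.83 in the D5-LP arrays, a difference of 1.36 (limma adjusted p = 5.03e-06). Both genes lay apart between the groups, and D28-LP kidneys averaged 7.81 and 8.35. *Slc5a1*, a sodium glucose transporter, was lower (-0.66, limma adjusted p = 0.0151), with overlapping groups. GTTAAT, part of the HNF1 site, stood in 9 of 59 promoters of these 3 lists (15.3%, against 7.37% of all promoters), and CAAAGTCCA, an HNF4 motif, in 2 of 59 (3.39%, against 0.375%).

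Among metabolic genes the calls were nearly all lower in D10-LP kidneys, beside 31% of all genes called lower (19% with quantile normalization). Several of these counts depended on scale. As deposited, the counts of amino acid and fatty acid oxidation genes were near the share of all genes. With quantile normalization, the respiratory chain, amino acid and glucose counts lay below it. Of 21 sterol and fatty acid synthesis genes, 14 were called lower and 1 higher (10 and 1 with quantile normalization), with a median of -0.35. *Idi1*, isopentenyl diphosphate isomerase, had 9.12, 9.11, 8.68, 8.65 and 9.25 in the D10-LP arrays, against 9.62, 9.83, 9.86, 10.09 and 9.73 in the D5-LP arrays, without overlap (difference -0.87, limma adjusted p = 0.000301). *Fdps* (-0.79), *Sqle*, squalene epoxidase (-0.62), and *Insig1*, a sterol-responsive anchor of the SREBP pathway (-0.57), were lower too, and the regulator *Srebf2* (-0.14) was not called. Respiratory chain and ATP synthase genes numbered 17 lower of 27 as deposited, at a median of -0.22, but 1 of 27 with quantile normalization, at a median of -0.07. Cytosolic ribosomal proteins were lower for 22 of 22 as deposited (median -0.29) and for 7 of 22 with quantile normalization (median -0.09). Counts for amino acid, creatine and urea cycle enzymes were 10 lower of 31 as deposited and 2 with quantile normalization, and those for glucose production and glycolysis 7 of 18 and 2. Fatty acid oxidation and ketone body genes were lower for 7 of 22 as deposited and 5 with quantile normalization. Without D10-LP replicates 1 and 2, a setting chosen after the values were seen, these counts were higher. Called lower were 26 of 27 respiratory chain, 22 of 31 amino acid, creatine and urea cycle, 11 of 18 glucose and 16 of 22 fatty acid oxidation genes. The share of all genes called lower there was 36.4%. The arrays left out had the highest D10-LP means of these lists, so more lower calls follow from leaving them out. *Ppargc1a*, a coactivator of mitochondrial genes (-0.50), *Cyp4a8*, a fatty acid hydroxylase (-0.70), and *Bdh1*, of ketone body metabolism (-0.48), were called lower under both scalings. *Hmox1*, the inducible heme oxygenase, was lower (-0.70, limma adjusted p = 0.00735), while *Hspb1* (0.91) and *Hspa1a* (0.68), stress-induced chaperones, were higher and *Hspa5*, the chaperone of the endoplasmic reticulum, was lower (-0.59).

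Many listed genes of the interstitial matrix and of vessels were higher in D10-LP kidneys. Of 36 interstitial collagens and matrix proteins, 23 were called higher and 3 lower (26 and 3 with quantile normalization), with a median of 0.45. *Eln*, elastin, had 8.05, 8.40, 8.52, 8.94 and 8.77 in the D10-LP arrays, against 7.32, 7.27, 7.37, 7.19 and 7.44 in the D5-LP arrays, and all D10-LP arrays were above all D5-LP arrays (difference 1.21, limma adjusted p = 5.39e-05; 0.45 for its other probe set). *Loxl2*, a lysyl oxidase that crosslinks matrix (0.92), *Col6a3* (0.80), *Col3a1* (0.57) and *Col1a1* (0.52) were higher. *Lum*, the proteoglycan lumican, had 9.59, 10.13, 8.54, 8.97 and 8.91 in the D10-LP arrays, against 7.81, 8.95, 7.23, 7.23 and 6.80 in the D5-LP arrays, a difference of 1.62 (limma adjusted p = 0.00621). The 3 highest values of *Lum* in D10-LP kidneys were those of replicates 1, 2 and 4, and without these arrays it was not called (difference 1.12, limma adjusted p = 0.0801). *Fbn2* (-0.77) and *Vcan* (-0.63), fibrillin 2 and versican of fetal matrix, were lower. *Smoc2*, a secreted calcium-binding matrix protein, had 10.24, 10.31, 10.56, 10.83 and 10.50 in the D10-LP arrays, against 8.64, 8.72, 8.64, 8.40 and 8.69 in the D5-LP arrays, with no overlap (difference 1.87, SE 0.11, limma adjusted p = 5.86e-07), while its other 2 probe sets differed by 0.23 and 0.59. Among 20 smooth muscle, pericyte and stromal markers, 8 were higher and 2 lower, *Pdgfra* (0.66) and *Rgs4* (0.78) higher and *Meis1*, a factor of fetal stroma, lower (-0.43). Endothelial genes counted 12 higher and 2 lower of 20, at a median of 0.28. *Eng*, endoglin, had 9.56, 9.48, 9.97, 10.13 and 9.77 in the D10-LP arrays, against 8.93, 8.80, 9.10, 8.87 and 8.94 in the D5-LP arrays (difference 0.85, limma adjusted p = 0.000185). *Plvap*, of fenestrated capillaries (0.85), *Vwf* (0.82), *Ptprb* (0.71) and the endothelial nitric oxide synthase *Nos3* (0.66) were higher, and *Flt4*, a receptor of lymphatic vessels, was lower (-0.28). *Kdr*, the main VEGF receptor, was not called (0.17), but was called higher without D10-LP replicates 1 and 2, and also without replicates 1, 2 and 4.

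Within the glomerulus the podocyte genes moved in both directions, 6 higher and 3 lower of 20. Without D10-LP replicates 1 and 2, a setting chosen after the values were seen, 12 were higher and 3 lower. Called higher there were 15% of all genes, and the arrays left out had the lowest D10-LP means of the podocyte list. *Wt1*, the transcription factor of podocytes and their precursors, had 9.36, 9.12, 9.54, 9.58 and 9.54 in the D10-LP arrays, against 10.24, 10.45, 10.08, 10.07 and 10.61 in the D5-LP arrays, all below the D5-LP range (difference -0.86, limma adjusted p = 0.00022; -0.74 for its other probe set). *Dach1* (-0.58) and *Plce1* (-0.43) were lower, *Clic5* (0.40), *Trpc6* (0.44) and *Tcf21* (0.61) were higher, and nephrin, *Nphs1*, was not called (-0.03). Basement membrane genes included 2 higher and 2 lower of 18 (4 and 2 with quantile normalization), with 8 higher without D10-LP replicates 1, 2 and 4 and 9 higher without replicates 1 and 2. The lower ones were *Lama1*, a laminin chain of the embryonic basement membrane (-0.67), and *Frem2* (-0.38), which holds epithelium to mesenchyme in the embryo.

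Blood pressure systems, which the study follows in this strain, changed gene by gene. *Agtr2*, the angiotensin II receptor of fetal mesenchyme, had 6.73, 6.79, 6.55, 6.48 and 6.55 in the D10-LP arrays, against 8.21, 8.21, 8.37, 8.76 and 8.24 in the D5-LP arrays. The groups were far apart (difference -1.74, SE 0.11, limma adjusted p = 9.16e-07; -0.60 for its other probe set), and D28-LP kidneys averaged 4.25. *Agtr1b* (0.52), *Agtr1a* (0.28) and *Ace*, angiotensin converting enzyme (0.40), were called higher. Of 18 prostaglandin genes, the cyclooxygenases *Ptgs1* (0.75) and *Ptgs2* (0.57) and the EP4 receptor gene *Ptger4* (0.54) were higher, and the EP3 receptor gene *Ptger3* (-0.50) and *Ptges3* (-0.29) lower, although *Ptges3* was not called with quantile normalization. *Ptger1*, which encodes the EP1 receptor of prostaglandin E2 and is the main candidate gene of the study, had 5.42, 5.24, 5.36, 5.49 and 5.24 in the D10-LP arrays, against 5.56, 5.43, 5.69, 5.63 and 5.17 in the D5-LP arrays. The groups overlapped, the difference was -0.15 (SE 0.10) and the gene was not called (limma adjusted p = 0.241). Without D5-LP replicate 5 it was called lower (difference -0.23, limma adjusted p = 0.0336). Its other probe set differed by 0.11. By qPCR, the paper reports significantly more renal *Ptger1* mRNA in LP rats at D10 than at D5. The array values did not show this rise, and the reason was not tested. *Runx1*, a transcription factor, had 6.05, 6.04, 6.0, 6.64 and 6.24 in the D10-LP arrays, against 5.72, 5.88, 5.58, 5.42 and 6.06 in the D5-LP arrays, and was called higher with overlapping groups (difference 0.46, limma adjusted p = 0.0202). *Tbx3*, a T-box factor (0.41, limma adjusted p = 0.0458), and *Kank3* (0.35, limma adjusted p = 0.011) were called higher as well, but *Tbx3* was not called when any of 8 single arrays was left out (limma adjusted p up to 0.108). Neither *Tbx3* nor *Kank3* was called in the fits with all 15 LP arrays or all 30 arrays. *Gnas*, the stimulatory G protein subunit (-0.02), and *Proser2* (0.13) were not called, *Proser2* with a limma adjusted p of 0.0498 without D10-LP replicate 2. The study chose these 6 candidates on kidneys of 28 days, not on these arrays.

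Smaller shifts were found in other groups. Interferon-stimulated genes were higher for 8 of 22, *Ifi44* (0.60) and *Ifi44l* (0.52) at the most, and lower for 1, *Oasl* (-0.37). Class II antigen presentation genes *RT1-Ba* (0.64), *RT1-Db1* (0.56) and *Cd74* (0.54) were higher, in a polymorphic family whose probes may share signal, whereas the macrophage genes *Csf1r* (-0.24), *Cd68* (0.04) and *Mrc1* (-0.37) were not called. Of 16 genes of the hypoxia response, 6 were higher and 1 was lower (7 and 1 with quantile normalization), the higher ones including *Pfkfb3*, an activator of glycolysis (1.00), *Adm*, adrenomedullin (0.67), and *Epas1*, the transcription factor HIF-2 alpha (0.50). *Epo* was not called (0.05). Of 15 tubular injury markers, 4 were higher and 4 lower, with a median of -0.06 (5 and 4, and 0.06, with quantile normalization). *Havcr1*, the injury marker KIM-1, was one of the lower ones and had 5.19, 4.81, 5.18, 4.99 and 5.06 in the D10-LP arrays, against 6.20, 5.73, 6.34, 6.0 and 5.78 in the D5-LP arrays, without overlap between the groups (difference -0.96).

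The 15 genes with the largest rises and the 15 with the largest falls included some outside these lists. *Lypd2*, of the LY6 family, had 6.15, 6.08, 6.54, 6.24 and 6.31 in the D10-LP arrays, against 3.85, 3.43, 3.53, 3.49 and 3.60 in the D5-LP arrays, and *Plcxd3*, a phospholipase-like protein, had 6.96, 6.71, 7.59, 7.15 and 7.27 in the D10-LP arrays, against 5.14, 5.31, 5.10, 4.92 and 4.86 in the D5-LP arrays. Both stood more than 1 log2 unit clear of the D5-LP range (differences 2.69 and 2.07). *Hnmt*, the enzyme that inactivates histamine by methylation, had 5.76, 6.01, 6.34, 5.21 and 5.20 in the D10-LP arrays, against 3.25, 3.22, 3.18, 3.25 and 3.29 in the D5-LP arrays (difference 2.46, limma adjusted p = 4.46e-06), and averaged 11.02 in D28-LP kidneys. Its other probe set differed by -0.08 and that of *Nxpe2* (2.63) by 0.02, so that only 1 of 2 probe sets showed the rise of each. *Bcl6*, a transcriptional repressor, had 9.38, 8.99, 9.57, 10.15 and 9.80 in the D10-LP arrays, against 7.54, 7.83, 8.05, 7.68 and 7.04 in the D5-LP arrays (difference 1.95). On the side of the falls, *Ndnf*, a secreted protein first described in neurons, had 5.34, 5.25, 5.17, 5.36 and 4.95 in the D10-LP arrays, against 7.83, 7.50, 7.44, 7.70 and 8.10 in the D5-LP arrays, and *Oprk1*, the kappa opioid receptor, had 4.79, 4.75, 4.92, 4.96 and 4.98 in the D10-LP arrays, against 7.22, 7.24, 6.72, 7.24 and 7.27 in the D5-LP arrays. Neither overlapped (differences -2.50 and -2.26), and the other 2 probe sets of *Oprk1* differed by -0.56 and -0.35. *Pou3f1*, a POU domain factor (-2.22), *Lrat*, which esterifies retinol (-2.12), *B3gnt5*, a glycolipid glycosyltransferase (-2.09), *Cracd* (-1.89), *Bmper* (-1.87) and *Ngfr*, the low-affinity neurotrophin receptor (-1.86), completed the falls of this kind. *Klk1c9*, a kallikrein with near-identical relatives whose probes may share signal, differed by -2.66. The remaining 5 falls were alpha-defensins and stefins, also of families with near-identical copies. *RatNP-3b*, a defensin, had 3.40, 4.31, 3.50, 4.05 and 4.11 in the D10-LP arrays, against 7.26, 6.81, 6.65, 7.46 and 6.25 in the D5-LP arrays (difference -3.01). *Np4* (-2.48), *Defa5* (-2.04), *Stfa2l2* (-2.71) and *Stfa3* (-2.46) fell as well, and every array of the D10-LP group was below every array of the D5-LP group for each of these 5 genes. The other probe set of *Stfa3* differed by -0.15 and was not called.

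Of the 15 largest rises, 9 were fat cell genes or genes abundant in fat, and their values differed between the D10-LP arrays. Of 11 adipose markers, 7 were called higher and 1 lower, with a median of 1.30. *Ucp1*, the uncoupling protein of brown fat, had 10.49, 10.89, 8.68, 10.70 and 7.80 in the D10-LP arrays, against 5.53, 5.18, 5.23, 5.39 and 5.46 in the D5-LP arrays (difference 4.35, SE 0.52, limma adjusted p = 7.38e-05). Replicates 1, 2 and 4 of the D10-LP group were high and replicates 3 and 5 lower, though still above all D5-LP arrays. *Fabp4*, the fatty acid carrier of adipocytes, had 11.36, 11.49, 9.87, 11.21 and 9.28 in the D10-LP arrays, against 7.76, 8.25, 7.98, 8.34 and 7.41 in the D5-LP arrays (difference 2.70), again with replicates 1, 2 and 4 above replicates 3 and 5. *Plin1* (2.31), *Cfd* (2.22), *Cidea* (2.19), *Adipoq* (1.30) and *Cidec* (1.21) were the other markers called higher, and *Lep* (0.01) was not called. *Cox8b* (3.15), *Rbp7* (2.92), *Thrsp* (2.40) and *Car3* (2.33), which are abundant in fat, were among the 15 largest rises. The mean over the 11 markers was 8.77, 8.86, 7.68, 8.49 and 7.32 in D10-LP arrays, against 6.80, 6.71, 6.73, 6.86 and 6.63 in D5-LP arrays. Without D10-LP replicates 1, 2 and 4, a setting chosen after these values were seen, *Ucp1* differed by 2.88 and *Fabp4* by 1.63. *Slc36a2*, an amino acid transporter of the proximal tubule that fat also expresses, had 6.88, 6.95, 5.84, 6.18 and 5.52 in the D10-LP arrays, against 4.57, 4.42, 4.26, 4.20 and 4.27 in the D5-LP arrays (difference 1.93, and 1.33 without those arrays), in the same pattern. The part of adipose RNA in the other results was not tested. Without those arrays, 10.7% of all genes were called higher and 29.1% lower. Counts that moved by less than 1.5 times included 28 of 34 cell proliferation genes lower (31 with them), 24 of 36 matrix genes higher (23), 13 of 20 endothelial genes higher (12), 8 of 19 genes of urea and water transport higher (8) and 21 of 27 respiratory chain genes lower (17). Counts that moved further included 8 of 18 basement membrane genes higher (2 with all arrays), 13 of 22 fatty acid oxidation genes lower (7), 4 of 21 endocytic and brush border genes lower (1), 8 of 24 antioxidant enzymes lower (4) and 2 of 8 lymphocyte markers lower (5). Among the others were 3 of 22 macrophage and antigen presentation markers lower (0) and 1 of 14 skeletal muscle markers lower (4).

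Markers of other tissues were also compared. Liver markers were lower for 7 of 11, at a median of -0.75, with list means of 5.43 to 6.0 in D10-LP arrays against 5.73 to 6.80 in D5-LP arrays. *Alb*, albumin, had 6.88, 6.40, 6.22, 5.86 and 5.77 in the D10-LP arrays, against 7.12, 8.30, 8.84, 8.06 and 5.83 in the D5-LP arrays and was called lower with overlapping groups (difference -1.41, limma adjusted p = 0.0315), a call lost without any of 6 single arrays (limma adjusted p up to 0.0768). *Fgb* (-1.22), *Serpina1* (-1.08), *Cps1* (-1.04) and *Apoa1* (-0.99) were lower. Red cell markers had 6 lower and 1 higher of 13, with *Ahsp* (-0.71) and *Klf1* (-0.52), genes of erythroid precursors, lower and *Hbb* (-0.07) not called. Adrenal markers were lower for 5 of 11, with list means of 4.75 to 4.90 in D10-LP and 5.01 to 5.40 in D5-LP arrays, lymphocyte markers for 5 of 8, with 5.11 to 5.16 and 5.28 to 5.41, and skeletal muscle markers for 4 of 14 with 2 higher. With quantile normalization 2 adrenal and 2 lymphocyte markers were lower, and 5 skeletal muscle markers were higher and 3 lower. The part of these tissues in the results above was not tested. The files used here hold no detection flags, so whether a marker exceeds background is not known.

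**Figure D4:**
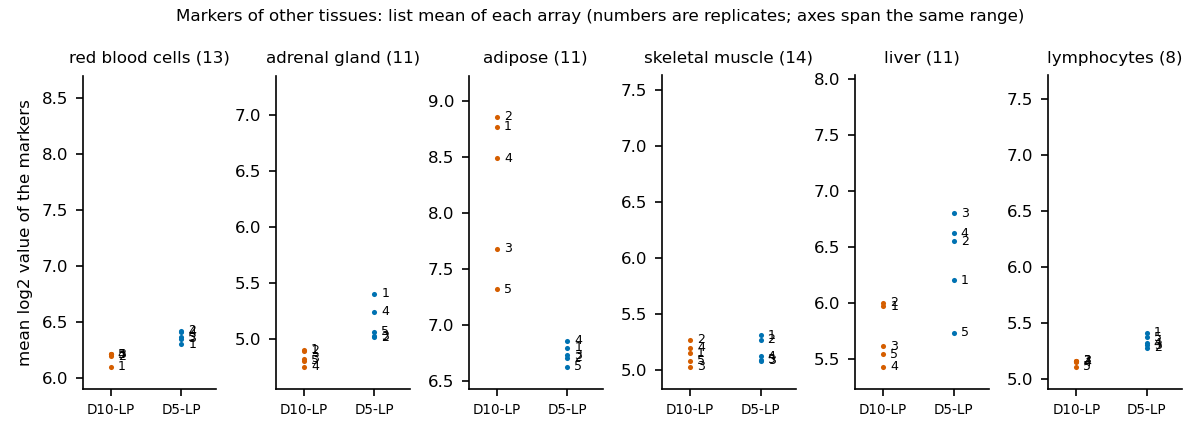
Mean log2 value (y axis) of the markers of 6 other tissues in each D10-LP and D5-LP array, labelled by replicate number, with the number of markers in each title. Adipose markers reach 8.77, 8.86 and 8.49 in D10-LP replicates 1, 2 and 4, against 6.63 to 6.86 in D5-LP arrays, and liver markers are lower and overlap.

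The ratio of 3′ to 5′ signal of control transcripts, a sign of RNA quality, was 0.586 ± 0.154 log2 units in D10-LP arrays and 0.546 ± 0.067 in D5-LP arrays (SD, n = 5 each), a difference of 0.04 within the spread between arrays (exact permutation test, two-sided, p = 0.595). It was lowest in D10-LP replicates 1 and 2, at 0.43 for each, the arrays at one end of the second principal component (25% of the variance, against 55.6% for the first component, which separated the ages). The arrays at the other end were D10-LP replicate 4 and D5-LP replicate 5, which had the highest ratio of their groups (0.78 and 0.66). D5-LP replicate 4 had the lowest ratio (0.48) and the lowest second component of its group. The part of RNA quality in the spread between arrays of an age was not tested.

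Finally, the change with age in LP pups was set against that in CN pups, from separate arrays. Of 31042 probe sets, 0 (0%) differed between the diets in their change with age at a limma adjusted p under 0.05, none of them having a value below 0.998. At an unadjusted p under 0.05 there were 1322, against 1552 expected for tests with no difference. The contrast had a median SE of 0.11, and the absence of calls does not show that the diets matured alike. In CN kidneys 3629 probe sets were called higher (11.7%) and 8002 lower (25.8%). Both diets shared 2559 probe sets called higher, 68.5% of those of LP and 70.5% of those of CN, and 6352 called lower, 72.5% of those of LP and 79.4% of those of CN, while 2 were called in opposite directions. Over all probe sets the changes in LP and CN correlated at 0.91, a description over probe sets that share the normalization run of each age. Of the 305 probe sets called in LP with a change of at least 1, 305 had the same sign in CN and 298 were called there. *Fgf8* differed by -1.76 in LP and -2.11 in CN, *Egf* by 1.87 and 1.92, and *Slc14a1* by 1.68 and 2.48 (contrast -0.80, SE 0.27, limma adjusted p = 0.998). The median of the cell proliferation list was -0.57 in LP and -0.78 in CN, that of the matrix list 0.45 and 0.63, and that of the endothelial list 0.28 and 0.57, with 0 genes of these lists called for the difference. The genes with the smallest p for the contrast were *Suv39h2*, a histone methyltransferase (change -0.15 in LP and -0.67 in CN), *Hells*, a chromatin remodeller (-0.16 and -0.86), and *Nr1d1*, the clock repressor REV-ERB alpha (-0.31 and 0.44), each with an adjusted p of 0.998. *Ptger1* changed by -0.15 in LP and -0.07 in CN (contrast -0.08, SE 0.14).

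**Figure D5:**
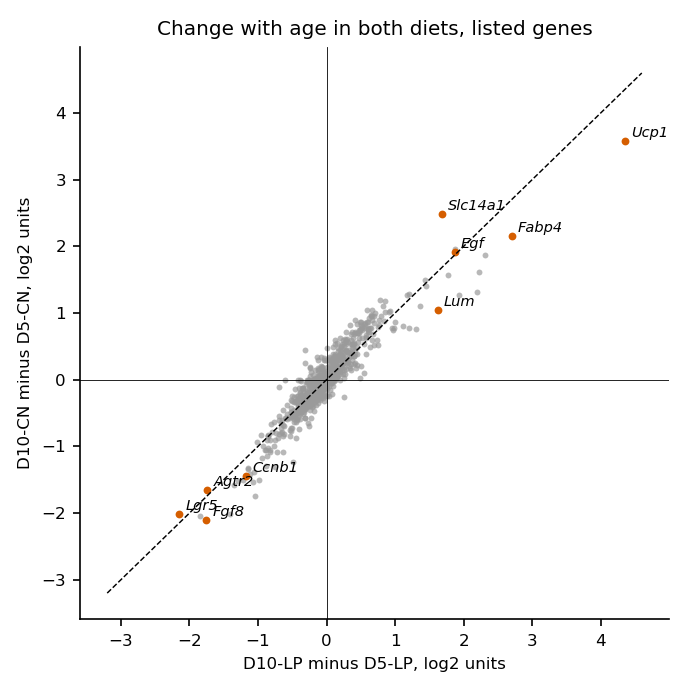
D10-LP minus D5-LP difference (x axis) against D10-CN minus D5-CN difference (y axis), in log2 units, for 808 listed genes, with selected genes named and the line of equal change dashed. *Fgf8* and *Lgr5* lie low and *Egf* high in both diets, and *Slc14a1* changed by 1.68 in LP and 2.48 in CN.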

How the data were processed

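Kidney RNA of 30 male SHRSP/Izm pups or pools (6 groups of 5 arrays) was measured on Affymetrix GeneChip arrays for the rat. The deposited values are log2 expression values, which the authors normalized across arrays at the level of probe sets, with a method that the names of their tables give as qFARMS. The 30 array columns of the authors' tables per age name no sample and were not used, nor were the authors' own diet comparisons in those tables. Of 31099 probe sets, 57 controls were left out. Of the 31042 tested, 20826 had 1 gene symbol in the platform annotation, 436 had several and 9780 had none, which gave 14217 genes. Where a gene had several probe sets, the one of highest mean in the series was taken.

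Differences (D10-LP minus D5-LP) were fitted with limma 3.58.1 in R 4.3.3 on the 10 arrays, with no covariate, and p-values were adjusted after Benjamini-Hochberg over all probe sets. The diet contrast was fitted on the 20 arrays of both ages. The script was tested on simulated data. Alternatives were quantile normalization, median centring, the dimmer probe sets left out (those below the middle of the ranked means), another eBayes setting, larger fits, a replicate block, single arrays left out, rank products, a t-test and an adjusted p of 0.2. The 44 gene lists and the members were chosen with earlier results of these data known. Genes were named by a rule: the study's 6 candidates, the 15 called genes with the largest rise and the 15 with the largest fall (placeholder names left out), up to 6 called members of a list with the largest change and up to 3 members not called, the 3 genes with the smallest p for the diet contrast, and the defining markers. Beyond the rule, 27 called genes were named after their values were seen. Promoters came from the RefSeq table of GRCr8, in which 651 of 808 listed genes matched. Python 3.11.15, numpy 2.4.6, pandas 2.3.3 and matplotlib 3.10.9 were used. No depth applies to arrays, and 5 arrays a group limit the precision.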

Additional observations from a re-analysis of the deposited data

Results flagged for a closer look

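For 21 genes, 1 array lay far from the other 4 of its group. That is 5.10% of the 412 groups of 5 arrays looked at for the named genes, and chance gives about 1 in 20. Each value below is that of the array apart, followed by the range of the other 4. In D10-LP kidneys the array apart was the highest of its group for *Bub1* in replicate 2 (8.05, against 7.83 to 7.87), *Myh3* in replicate 4 (4.87, against 4.59 to 4.67) and *Serpina1* in replicate 2 (5.79, against 4.97 to 5.15). It was also so for *Wnt5a* in replicate 1 (7.45, against 6.90 to 7.03). In D10-LP kidneys the array apart was the lowest of its group for *Casq1* in replicate 5 (5.49, against 5.66 to 5.72), *Cracd* in replicate 4 (4.41, against 4.68 to 4.76) and *Grem1* in replicate 2 (10.15, against 10.39 to 10.47). A like gap was found for *Igf2bp3* in replicate 4 (8.00, against 8.23 to 8.27) and *Nxpe2* in replicate 2 (6.07, against 6.58 to 6.72). In D5-LP kidneys the array apart was the highest of its group for *Cdc20* in replicate 5 (9.05, against 8.53 to 8.66), *Fdps* in replicate 4 (10.66, against 10.31 to 10.34) and *Igf2bp1* in replicate 5 (6.48, against 6.15 to 6.20). So it was for *Mcm3* in replicate 5 (8.93, against 8.71 to 8.73), *Nr1d1* in replicate 3 (5.99, against 5.54 to 5.63) and *Plin1* in replicate 4 (5.18, against 4.94 to 5.00). In D5-LP kidneys the array apart was the lowest of its group for *Lrp2* in replicate 5 (12.24, against 12.43 to 12.48), *Nos3* in replicate 4 (5.25, against 5.69 to 5.85) and *Oprk1* in replicate 3 (6.72, against 7.22 to 7.27). The same gap was seen for *Slc12a1* in replicate 5 (12.61, against 12.74 to 12.77), *Smoc2* in replicate 4 (8.40, against 8.64 to 8.72) and *Suv39h2* in replicate 1 (5.30, against 5.59 to 5.69). D5-LP replicate 5 was the array apart for 5 genes, and D5-LP replicate 4 and D10-LP replicate 2 for 4 each. The causes were not tested.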

How the results depend on the processing

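The 12497 probe sets called became 6171 (1541 higher, 4630 lower) when the probe sets of lower mean were left out, which left fewer to test. Rank products gave 5338 (2741 higher, 2597 lower) at a looser threshold, a false discovery rate under 0.2. At an adjusted p under 0.2, 5777 were called higher, and quantile normalization gave 5585 lower. Of the 305 with a change of at least 1, the setting with the probe sets of lower mean left out called 110 (52 higher, 58 lower). Leaving out single arrays gave 10685 to 13257 calls (3112 to 4092 higher, 7522 to 9165 lower) and 282 to 349 with a change of at least 1 (134 to 170 and 148 to 179). The count for the difference between diets was 0 under every alternative run, 0 to 0 with single arrays left out. The methods' t-test called 14620 probe sets at its unadjusted threshold and 11488 after Benjamini-Hochberg. The replicate numbers did not pair the arrays, as same-numbered arrays correlated at -0.636 to 0.411 in their deviations and only number 5 correlated best with itself. With the replicate block 10423 probe sets were called (3114 higher, 7309 lower), 306 with a change of at least 1, and 0 for the diets. A further 2 settings were chosen after seeing the data. Without D10-LP replicates 1, 2 and 4, 11541 probe sets were called. The calls of *Agtr1a*, *Alb*, *Aqp4*, *Etv5*, *Lum*, *Meox1*, *Ret*, *Runx1* and *Slc12a1* were lost, and *Epo*, *Kdr* and *Lrp2* became called. Without D10-LP replicates 1 and 2, 14999 probe sets were called. There the calls of *Aqp4*, *Etv5*, *Klk1*, *Nr1d1* and *Slc12a1* were lost, and *Csf1r*, *Ghr*, *Kdr*, *Lrp2*, *Proser2*, *Sord* and *Wnt4* became called. Among the 206 named genes (175 called), *Nphs1* and *Slc12a1* changed sign with a call as deposited or in the alternative. *Nphs1* did so without D10-LP replicates 1 and 2 (0.26, called there) and *Slc12a1* with quantile normalization (0.01, not called there). *Nr1d1* was not called without D10-LP replicate 3 (limma adjusted p = 0.0605), and *Suv39h2* was called without D5-LP replicate 1 (0.0208). With all 15 LP arrays in the fit, calls were lost for *Aqp4*, *Bsnd*, *Kank3*, *Meox1*, *Nr1d1*, *Slc12a1*, *Spry1*, *Tbx3* and *Vcan*. With all 30 arrays, those of *Aqp4*, *Kank3*, *Meox1*, *Nr1d1*, *Spry1*, *Tbx3* and *Vcan* were lost too. Lost there as well were those of *Alb*, *Apoa1*, *Cldn16*, *Col1a1*, *Nfat5*, *Per1*, *Per2* and *Usp2*. In all, 3714 of 3841 pairs of gene and setting kept their call, and the called ones among them kept direction. Genes called in neither fit could change sign, as *Aqp2* did (-0.09 as deposited, 0.08 with quantile normalization). For the gene lists, 48 medians under an alternative moved by more than the SD of the list mean between arrays of a group. Where no cause is given, the cause was not tested. The files give no signal over background, so what dim probe sets can show is not known.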

Other observations

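Single genes of some further groups differed between the ages, although the clock and sodium channel groups held no more calls than all genes did (11.3% higher and 31% lower). Of 18 clock genes, 1 was called higher and 5 lower (2 and 4 with quantile normalization). *Per1*, a clock gene that corticosteroids induce, had 7.69, 7.74, 7.93, 7.98 and 7.78 in the D10-LP arrays, against 8.04, 8.24, 8.22, 8.35 and 8.37 in the D5-LP arrays, and *Usp2*, a ubiquitin protease under clock control, had 7.88, 7.92, 7.87, 7.97 and 7.91 in the D10-LP arrays, against 8.26, 8.40, 8.41, 8.50 and 8.30 in the D5-LP arrays. In both the D10-LP arrays lay below the D5-LP arrays (differences -0.42 and -0.46, limma adjusted p = 0.00145 and 7.66e-05). *Per2* was higher (0.38, limma adjusted p = 0.00177), *Bhlhe41* was lower (-0.33), and *Bmal1* (0.03) was not called. The hour at which the kidneys were taken is not given in the sources used here. Of 13 genes of the epithelial sodium channel and mineralocorticoid response, *Hsd11b2*, the enzyme that shields the mineralocorticoid receptor from corticosterone, was the 1 gene called higher (0.29, limma adjusted p = 0.000918, with no overlap between the groups), 3 were called lower (4 higher and 1 lower with quantile normalization, which turned the balance), and the channel subunit *Scnn1a* (0.16) was not called.

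Of 14 skeletal muscle markers, 2 were higher and 4 lower (5 and 3 with quantile normalization). *Myh3*, the embryonic myosin heavy chain, was lower (-0.70, limma adjusted p = 1.93e-05) and *Casq1*, a calcium-binding protein of mature muscle, was higher (0.62, limma adjusted p = 0.000577), both with no overlap between D10-LP and D5-LP arrays.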
